A study of Homo sapiens with 6 samples.

Results

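The genes described carry the names of the cytoplasmic translation initiation factors (eIF) and elongation factors (eEF), with the enzymes that modify elongation factors. They were taken by symbol, as every gene whose name begins with EIF or EEF and a digit, leaving out the eIF2 kinases (EIF2AK) and the eIF4E-binding proteins (EIF4EBP). By name alone, EIF1AD was counted with eIF1 and eIF1A, and EIF4ENIF1 with eIF4, whether or not they act as initiation factors. Of 17687 genes measured by a probe set with 1 symbol, 52 met this rule, and each of them had 1 such probe set. They comprised 5 eIF1 and eIF1A genes, 10 genes of the eIF2 class (3 of the eIF2 trimer, 5 of eIF2B, and EIF2A with EIF2D), 13 eIF3 genes, 9 eIF4 genes, 6 eIF5 and eIF6 genes, 3 elongation factor genes, 5 genes of elongation factor modifiers and the readthrough locus EEF1E1-BLOC1S5. Among the genes not analysed here for want of a 1-symbol probe set are EIF4A1, EIF4A2, EIF4G2, EIF4G3, EEF2, EEF1G and EEF1B2. EIF1AY was counted with the others, and its level is not given.

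Messenger RNA was profiled in U87MG, an established human glioblastoma cell line grown in RPMI medium with fetal bovine serum. Before the exposure the cells were kept in medium with much less serum. P-bi-TAT cells were exposed to 30 µM of P-bi-TAT for 24 h (3 arrays), and UNTREATED cells received PBS over the same 24 h (3 arrays). P-bi-TAT is a bivalent compound built with tetrac, a derivative of thyroid hormone, and it acts at the thyroid hormone receptor site of integrin αvβ3 on the cell surface. No transgene or other agent is named for either group, and nothing states that the 3 replicates were separate cultures, and the spread that the p-values rest on is therefore that between these 6 arrays, which may be technical.

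Translation begins when eIF2, carrying GTP and the initiator tRNA, joins the small ribosomal subunit with eIF1, eIF1A, eIF3 and eIF5, while eIF4F (the cap-binding eIF4E, the scaffold eIF4G and the helicase eIF4A) brings in the mRNA. eIF5 triggers GTP hydrolysis on eIF2 at the start codon, eIF2B recharges eIF2 with GTP, and eIF5B joins the large subunit. Elongation then depends on eEF1A, which delivers aminoacyl-tRNA, on its exchange factors such as EEF1D, and on eEF2, which moves the ribosome along. In tumour cells, growth signals reach this machinery through mTOR and eIF4E, and stress signals reach it through phosphorylation of eIF2. Many mRNAs of ribosomal proteins and translation factors start with a C followed by a run of pyrimidines, and the translation of such mRNAs is known to be under the control of mTOR.

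The starts of several of these genes are shown because the members are divided by this feature further on, and they include genes that follow the division and genes that do not. Each sequence runs 5′ to 3′ in the direction of transcription over 30 bases of GRCh38.p14, with 10 bases before the annotated RefSeq start and 20 from it, and capitals mark a pyrimidine run of at least 5 bases that opens with C at the start. The first 6 carry such a run: EEF1A1 (chr6:73521013-73521042, minus strand), EIF2S3 (chrX:24054946-24054975, plus), EIF2A (chr3:150546777-150546806, plus), EIF3K (chr19:38619178-38619207, plus), EIF4B (chr12:53006446-53006475, plus) and EIF3M (chr11:32583821-32583850, plus). The other 4 carry none: EIF2B2 (chr14:75002911-75002940, plus), EIF2S1 (chr14:67360318-67360347, plus), EIF5B (chr2:99337379-99337408, plus) and EEF2K (chr16:22206268-22206297, plus).
EEF1A1: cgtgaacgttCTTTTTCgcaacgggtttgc
EIF2S3: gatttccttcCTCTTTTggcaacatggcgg
EIF2A: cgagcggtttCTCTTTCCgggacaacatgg
EIF3K: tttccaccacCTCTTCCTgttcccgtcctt
EIF4B: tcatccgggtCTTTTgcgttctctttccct
EIF3M: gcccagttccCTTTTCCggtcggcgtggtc
EIF2B2: cgcccgccccggaagtgcaaactgtgtggt
EIF2S1: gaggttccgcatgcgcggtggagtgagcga
EIF5B: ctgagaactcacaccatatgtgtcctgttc
EEF2K: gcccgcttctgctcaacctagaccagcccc

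Values are log2 expression values as the authors deposited them, so a difference of 1 is a doubling. P-bi-TAT replicate 1 stood apart. Its gene probe sets had a median of 3.52 and 3368 distinct values, against medians of 4.73 and 4.76 and at least 20971 distinct values in P-bi-TAT replicates 2 and 3, and medians of 4.85 and at least 20841 distinct values in the UNTREATED arrays. The median over the 52 genes was 7.44 in that array, 10.9 and 11.2 in the other P-bi-TAT arrays, and between 10.2 and 10.4 in the UNTREATED arrays. Negative controls, probe sets the files name as such, stood at medians from 3.20 up to 3.27 in P-bi-TAT arrays and from 3.67 up to 3.98 in UNTREATED arrays, and 51 of the 52 genes lay above these controls in both groups. Of 7 measured markers of the U87MG line 6 lay above the controls in both groups, the exception being CHI3L1, as did 3 of 8 markers of other cell types. The main results are therefore given over all 6 arrays and also over the 5 that remain without that array. The methods name a set amount of total RNA for the arrays, so the values do not measure the number of cells. In RNA of whole cultures, fewer cells that carry an mRNA and less of it per cell cannot be told apart.

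With all 6 arrays, an adjusted p under 0.05 was reached by 0 of the 52 genes, and by 0% of all genes (limma, the smallest among the 52 being 0.847). At a fold of 1.5 with an unadjusted p under 0.05, 1 gene was higher with P-bi-TAT (EEF1D) and 1 was lower (EIF4E1B), beside 0.192% and 4.98% of all genes. Without P-bi-TAT replicate 1 again 0 genes passed the adjusted p (smallest 0.136 by limma), and over all genes 0% did. At the fold of 1.5 and the unadjusted p, 10 genes were then higher and 1 was lower, beside 9.26% and 5.31% of all genes. The 10 were EEF1D, EIF2A, EIF2B2, EIF2S3, EIF3D, EIF3G, EIF3K, EIF4B, EIF5 and EIF6, and the 1 was EIF4E1B. These 2 arrays against 3 were compared after the array had been seen to stand apart in earlier results of these data.

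That array lay on the other side of the UNTREATED mean from the other P-bi-TAT arrays for most members. In P-bi-TAT replicate 1, values under the mean of the UNTREATED arrays were seen for 47 of the 52 genes, and 44 of them (84.6% of the 52, beside 75.0% of all genes) lay below all 3 UNTREATED arrays. In P-bi-TAT replicate 2, and likewise in replicate 3, 41 of the 52 lay above the UNTREATED mean. Replicates 2 and 3 both exceeded all 3 UNTREATED arrays for 23 of the 52 genes (44.2%, beside 19.1% of all genes), and both lay under all 3 for 3 genes (5.77%, beside 17.9%). The pattern of a lower value in replicate 1 and higher values in replicates 2 and 3 held for 35 genes (67.3%, beside 36.8%). These shares describe the members beside all genes and were not tested. The 2 sets also differ in level, since 51 of the 52 genes but 11984 of 17687 genes lay above the negative controls in both groups. Over all genes the difference of P-bi-TAT replicates 2 and 3 rose with the UNTREATED mean (r = 0.29, beside 0.17 over the 52 genes). The shares were not compared at matched levels.

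**Figure D1:**
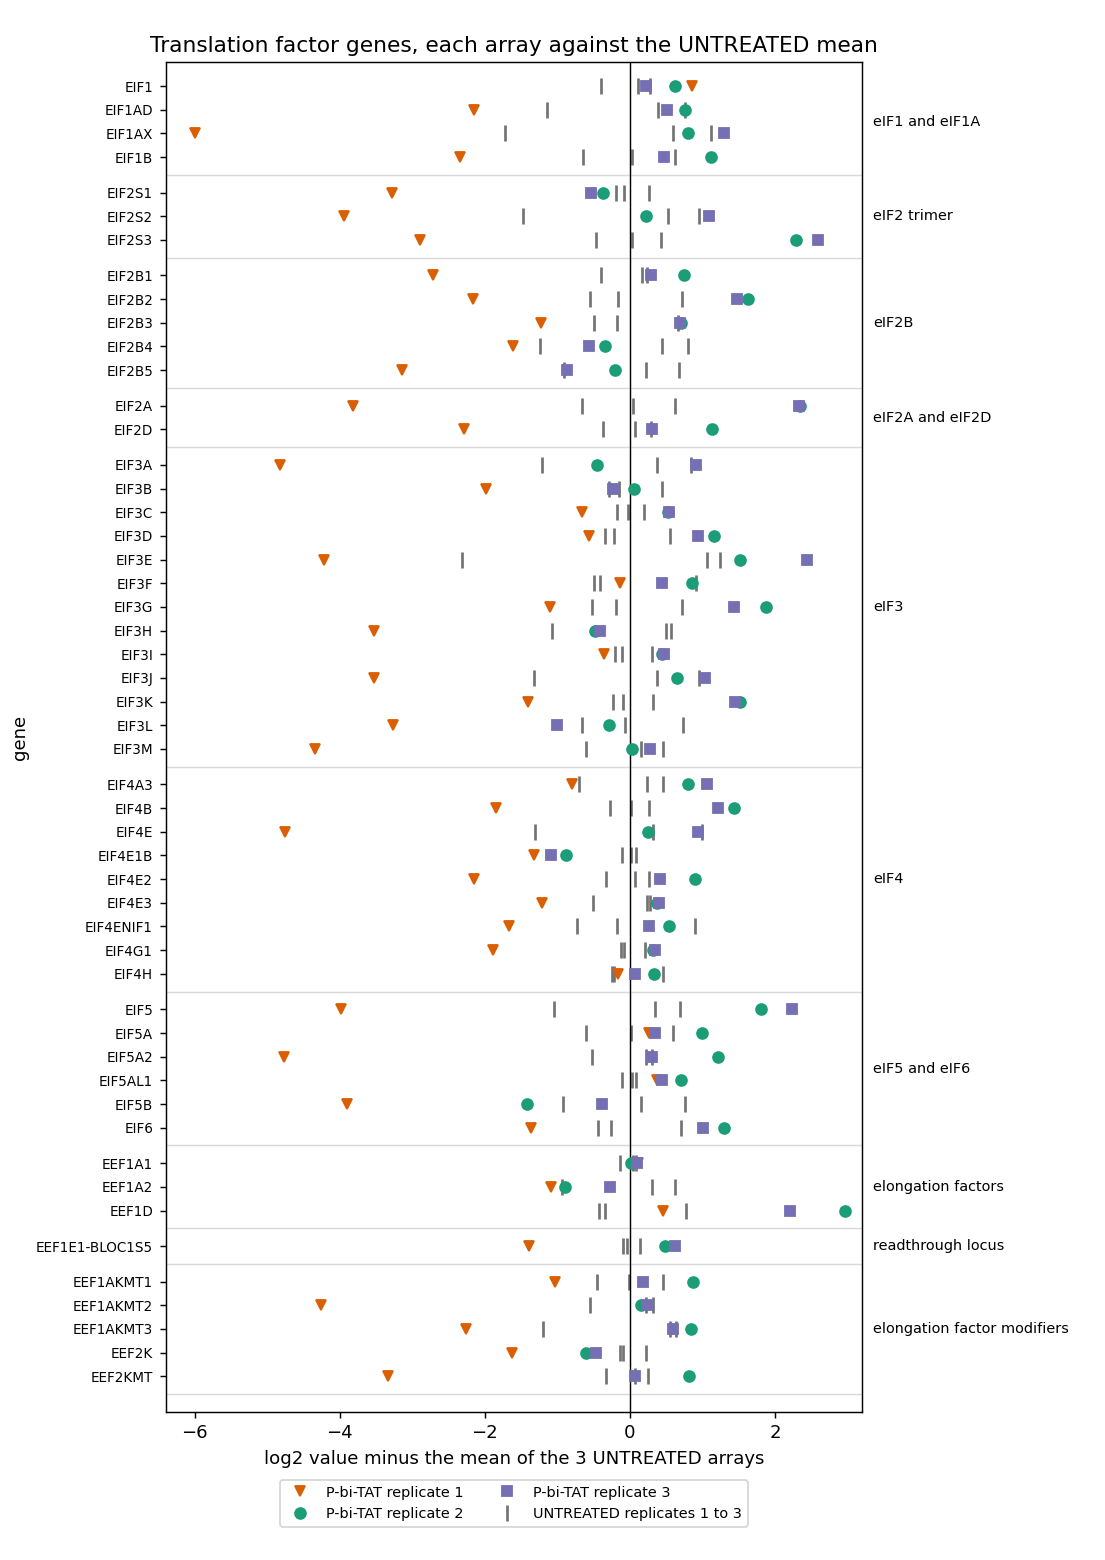
Log2 value of each gene minus the mean of its 3 UNTREATED arrays (x axis, log2 units), for 51 genes in rows by class (EIF1AY is not drawn). Coloured symbols are the P-bi-TAT replicates and grey ticks the UNTREATED replicates. P-bi-TAT replicate 1 lies to the left of 0 in nearly every row, while replicates 2 and 3 lie together and mostly to the right.

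Among the eIF1 and eIF1A genes, EIF1, which keeps the scanning ribosome from starting at the wrong codon, had values of 17.62, 17.39 and 16.98 in P-bi-TAT arrays, against 17.05, 16.88 and 16.37 in UNTREATED arrays. The groups overlapped, with a difference of 0.57 (SE 0.41), and it was 1 of 5 members that were not under the UNTREATED mean in the first P-bi-TAT array. EIF1AX, which helps the initiator tRNA into place, had 4.09, 10.88 and 11.37 with P-bi-TAT and 8.36, 10.68 and 11.20 in UNTREATED arrays. Here replicate 1 of both groups was the low array. EIF1AX is closely similar to EIF1AY, so how its probes divide signal between the pair is uncertain. The median difference over the 5 genes was -0.25 over all 6 arrays, and 0.64 without the first P-bi-TAT array. The median of 0.64 is the value of EIF1AD, which was counted here by name.

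The 3 subunits of the eIF2 trimer differed in sign without P-bi-TAT replicate 1. EIF2S3, the gamma subunit that binds GTP and the initiator tRNA, had 7.77, 12.95 and 13.26 in P-bi-TAT arrays, against 10.20, 10.69 and 11.09 in UNTREATED arrays. Replicates 2 and 3 were above all UNTREATED arrays and replicate 1 was below them, which gave a difference of 0.67 (SE 1.41) with all 6 arrays and 2.44 (SE 0.42) without replicate 1, a 5.44-fold difference with an adjusted p of 0.136 (limma). Its near copy EIF2S3B is not analysed here and could share its signal. EIF2S1, the alpha subunit whose phosphorylation curbs initiation, had 9.26, 12.17 and 12.00 with P-bi-TAT, against 12.35, 12.80 and 12.45 in UNTREATED arrays. It was lower in all 3 P-bi-TAT arrays, with a difference of -1.40 (SE 0.81), or -0.45 (SE 0.38) without replicate 1, and neither passed the unadjusted p. EIF2S2, the beta subunit, overlapped between the groups, with 6.97, 11.13 and 11.99 in P-bi-TAT arrays and 9.44, 11.43 and 11.85 in UNTREATED arrays.

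Of the 5 subunits of eIF2B, the exchange factor that recharges eIF2, EIF2B2 had 7.79, 11.58 and 11.42 in P-bi-TAT arrays, against 10.66, 9.79 and 9.39 in UNTREATED arrays. Its difference was 0.31 (SE 1.05) with all 6 arrays and 1.55 (SE 0.47) without P-bi-TAT replicate 1. EIF2B3 followed at 9.64, 11.58 and 11.56 with P-bi-TAT and 11.53, 10.38 and 10.70 in UNTREATED arrays, a difference of 0.70 (SE 0.45) without replicate 1. EIF2B5, the catalytic epsilon subunit, had 4.81, 7.74 and 7.08 in P-bi-TAT arrays, against 8.63, 8.16 and 7.04 in UNTREATED arrays, and its difference was below 0 both with all 6 arrays (-1.40, SE 0.84) and without replicate 1 (-0.53, SE 0.54). Subunits of the one complex thus differed in sign, 3 of 5 being above 0 without replicate 1 and 2 of 5 with all arrays.

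EIF2A and EIF2D, which can bring tRNA to the ribosome without eIF2, are separate genes from the trimer despite their names. EIF2A had 2.83, 9.0 and 8.98 in P-bi-TAT arrays, against 5.98, 6.69 and 7.27 in UNTREATED arrays. Replicates 2 and 3 were thus well above every UNTREATED array while replicate 1 was under the negative control median of its array (3.20), and the difference was 0.29 (SE 1.63) with all arrays and 2.34 (SE 0.46) without replicate 1. EIF2D had 6.02, 9.45 and 8.62 with P-bi-TAT and 8.39, 7.94 and 8.61 in UNTREATED arrays, with differences of -0.28 and 0.72.

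**Figure D2:**
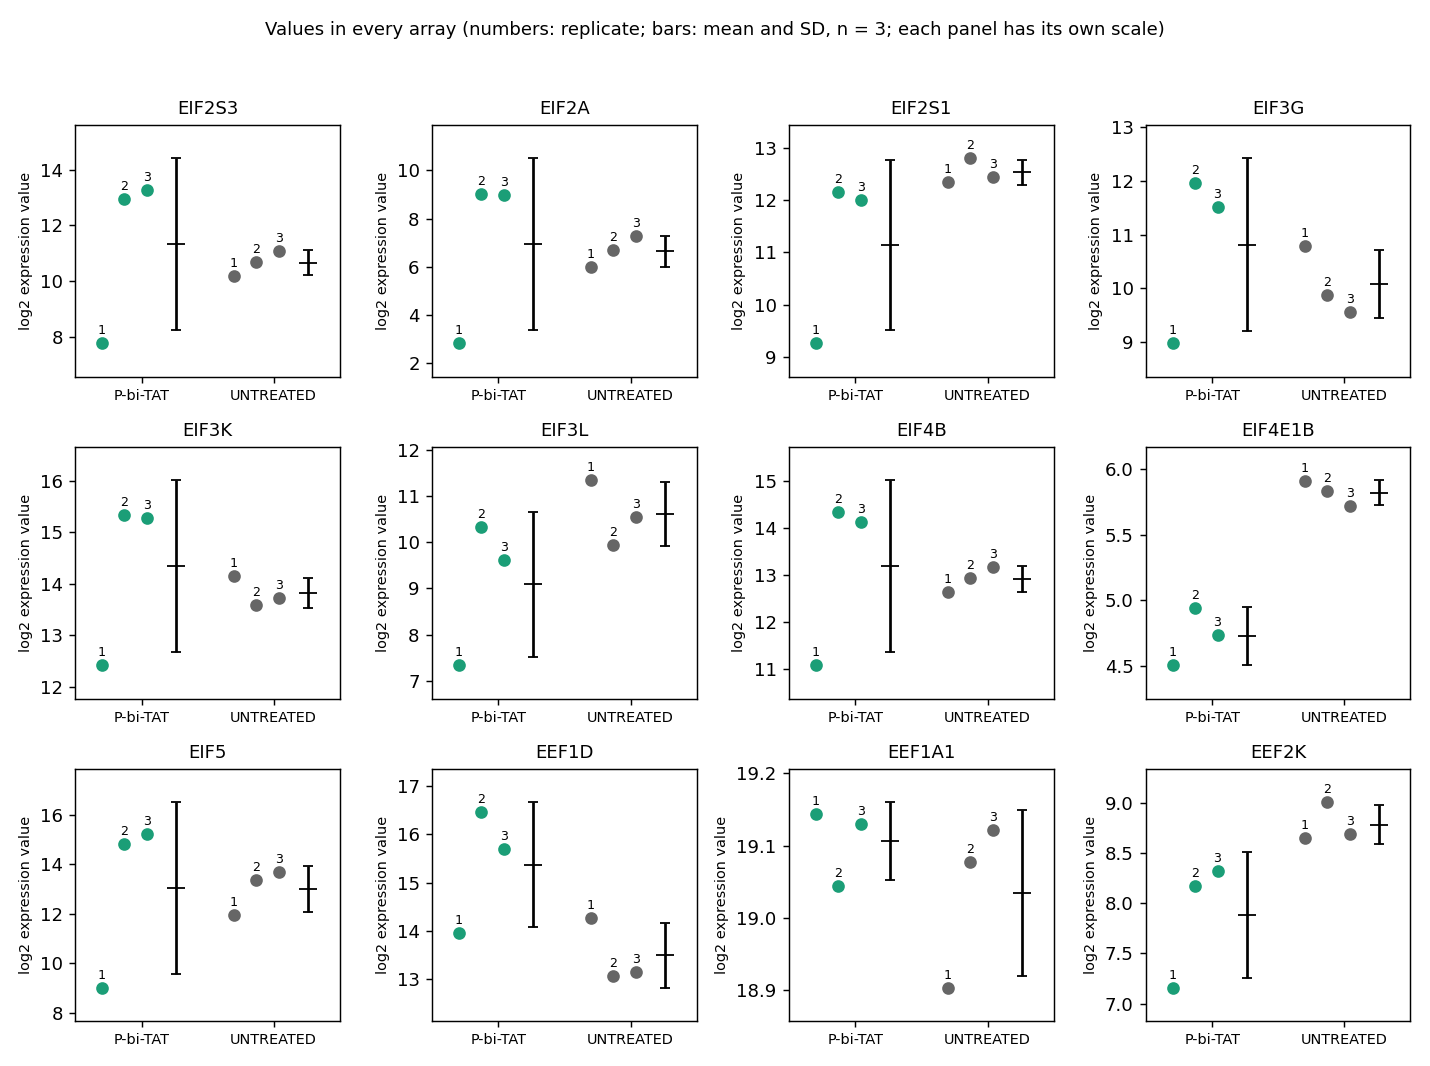
Log2 expression values of 12 genes in every array (y axis, log2 units, its own scale in each panel), with P-bi-TAT on the left and UNTREATED on the right. Points carry the replicate number and bars give mean and SD (n = 3). For EIF2S3, EIF2A, EIF3K, EIF4B and EIF5, P-bi-TAT replicates 2 and 3 lie above all UNTREATED values and replicate 1 below them.

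eIF3 is the large scaffold that holds the other initiation factors on the small subunit. EIF3G, an RNA-binding subunit that takes part in scanning, had 8.97, 11.95 and 11.51 in P-bi-TAT arrays, against 10.78, 9.88 and 9.55 in UNTREATED arrays, a difference of 0.74 (SE 0.84) with all arrays and 1.66 (SE 0.47) without replicate 1. EIF3K showed the same arrangement, at 12.42, 15.34 and 15.27 with P-bi-TAT and 14.14, 13.60 and 13.73 in UNTREATED arrays, with differences of 0.52 and 1.48. EIF3D, which can itself bind the cap of some mRNAs, had 11.40, 13.13 and 12.91 with P-bi-TAT and 12.52, 11.62 and 11.75 in UNTREATED arrays, and its difference without replicate 1 was 1.06 (SE 0.43). EIF3K, EIF3D, EIF4B and EIF6 are described because they are among the 10 genes above, and were thus chosen after their values were seen.

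The other eIF3 subunits passed in neither fit of the deposited values. EIF3L had 7.33, 10.32 and 9.61 in P-bi-TAT arrays, against 11.33, 9.94 and 10.54 in UNTREATED arrays, a difference of -1.52 (SE 0.83) that fell short of the unadjusted p and was -0.64 without replicate 1. EIF3H had 11.40, 14.44 and 14.52 with P-bi-TAT, against 13.86, 15.43 and 15.50 in UNTREATED arrays, with differences of -1.48 and -0.45. EIF3E ranged over 8.60, 14.34 and 15.26 in P-bi-TAT arrays and 10.52, 13.89 and 14.07 in UNTREATED arrays. For EIF3E replicate 1 was the lowest array of each group by over 3 units, and its difference of 1.97 without P-bi-TAT replicate 1 still held the low UNTREATED array and had an SE of 1.00. EIF3C differed by 0.14 (SE 0.47) and is hard to tell from its near copy EIF3CL.

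Within eIF3, the 8 subunits of the structural octamer (EIF3A, EIF3C, EIF3E, EIF3F, EIF3H, EIF3K, EIF3L and EIF3M) had a median difference of -0.72 with all arrays and 0.38 without the first P-bi-TAT array. The 5 other subunits (EIF3B, EIF3D, EIF3G, EIF3I and EIF3J) had medians of 0.18 and 0.84. In P-bi-TAT replicate 1 alone the octamer subunits were at a median of -3.40 from the UNTREATED mean and the other 5 at -1.10. These medians describe the subunits and were not tested against each other.

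Among the eIF4 genes, EIF4E1B, a relative of EIF4E known mainly from oocytes, was the only member lower at the fold of 1.5 with the unadjusted p in both fits of the deposited values. It had 4.50, 4.94 and 4.74 in P-bi-TAT arrays, against 5.91, 5.83 and 5.72 in UNTREATED arrays. The groups did not overlap (two-sided exact permutation p = 0.1, the smallest that 3 against 3 arrays can give), and the difference was -1.09 (SE 0.37, unadjusted p = 0.0221 by limma, adjusted p = 0.847). The size and the call depended on the scaling of the 6 arrays, the difference being -0.35 after quantile normalization (unadjusted p = 0.526 by limma), -0.59 after median centring and -0.65 with the intensity trend removed. Its means of 4.73 ± 0.22 in P-bi-TAT arrays and 5.82 ± 0.10 in UNTREATED arrays (SD, n = 3 each) are low on this scale, and the negative controls were also lower with P-bi-TAT (mean of their medians 3.23, against 3.81 in UNTREATED arrays).

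EIF4B, which stimulates the helicase that unwinds the mRNA leader, had 11.08, 14.36 and 14.13 in P-bi-TAT arrays, against 12.64, 12.93 and 13.18 in UNTREATED arrays. Replicates 2 and 3 exceeded all UNTREATED arrays, and the difference was 0.27 (SE 0.89) with all arrays and 1.33 (SE 0.38) without replicate 1. EIF4E, the cap-binding protein, had 5.87, 10.88 and 11.57 with P-bi-TAT, against 9.32, 10.94 and 11.61 in UNTREATED arrays, so that replicates 2 and 3 of the groups nearly coincided. EIF4G1, the scaffold of the cap complex, had 8.89, 11.10 and 11.13 with P-bi-TAT and 10.98, 10.69 and 10.66 in UNTREATED arrays, a difference of 0.34 (SE 0.37) without replicate 1. EIF4H, a smaller relative of EIF4B, varied little, at 14.51, 15.01 and 14.74 with P-bi-TAT and 15.13, 14.46 and 14.43 in UNTREATED arrays (difference 0.08, SE 0.41).

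The paralogs of EIF4E did not share a difference that exceeded its error. EIF4E2, a cap-binding repressor, differed by -0.28 (SE 0.82) with all arrays and 0.66 (SE 0.40) without replicate 1, and EIF4E3 by -0.15 (SE 0.57) and 0.39 (SE 0.41). EIF4A3, the helicase of the exon junction complex and the only eIF4A gene measured here, had 6.43, 8.03 and 8.29 in P-bi-TAT arrays, against 6.52, 7.67 and 7.46 in UNTREATED arrays, a difference of 0.94 (SE 0.46) without replicate 1.

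EIF5, which activates the GTPase of eIF2, showed one of the widest spreads. It had 9.01, 14.82 and 15.24 in P-bi-TAT arrays, against 11.96, 13.35 and 13.70 in UNTREATED arrays, and its difference was 0.02 (SE 1.62) with all arrays and 2.02 (SE 0.56) without replicate 1. The value of 2.02 still held the low UNTREATED replicate 1, which lay 1.56 under the mean of UNTREATED replicates 2 and 3. EIF5B, which joins the ribosomal subunits, lay lower with P-bi-TAT by its mean, with 5.65, 8.14 and 9.17 in P-bi-TAT arrays and 8.63, 9.70 and 10.32 in UNTREATED arrays. Its difference was -1.90 (SE 0.95) with all arrays and -0.90 (SE 0.58) without replicate 1, neither of which passed the unadjusted p, and only P-bi-TAT replicate 3 reached into the UNTREATED range. EIF6, which keeps the ribosomal subunits apart, had 10.81, 13.48 and 13.18 with P-bi-TAT, against 12.88, 11.91 and 11.74 in UNTREATED arrays, a difference of 1.15 (SE 0.46) without replicate 1.

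EIF5A, the factor that carries hypusine and relieves stalled ribosomes, had 17.22, 17.96 and 17.31 in P-bi-TAT arrays, against 17.56, 16.35 and 16.97 in UNTREATED arrays (difference 0.53, SE 0.48). Its paralog EIF5A2 had 4.08, 10.07 and 9.16 with P-bi-TAT, against 8.33, 9.15 and 9.07 in UNTREATED arrays. In P-bi-TAT replicate 1 the pair parted, with EIF5A2 at -4.77 and EIF5A at 0.26 from their own UNTREATED means. EIF5AL1, a near copy of EIF5A, was the single member of the 52 that was higher in all 3 P-bi-TAT arrays than in all UNTREATED arrays, beside 0.758% of all genes, but it did not lie above the negative controls in either group. Lower in all 3 P-bi-TAT arrays than in all UNTREATED arrays were 3 members (EEF2K, EIF2S1 and EIF4E1B), beside 14.5% of all genes.

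Of the elongation factors, EEF1D, a subunit of the exchange complex that recharges eEF1A with GTP, had 13.96, 16.46 and 15.70 in P-bi-TAT arrays, against 14.27, 13.08 and 13.15 in UNTREATED arrays. Replicates 2 and 3 exceeded all UNTREATED arrays by over 1, and replicate 1 fell within the UNTREATED range. The difference was 1.87 (SE 0.73), a 3.66-fold higher value, with an unadjusted p of 0.0374 and an adjusted p of 0.847 by limma. Without replicate 1 it was 2.58 (SE 0.50), or 5.99-fold (unadjusted p = 0.000802, adjusted p = 0.151 by limma).

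EEF1A1, which delivers aminoacyl-tRNA to the ribosome, was nearly flat, with 19.14, 19.04 and 19.13 in P-bi-TAT arrays and 18.90, 19.08 and 19.12 in UNTREATED arrays. The difference was 0.07 (SE 0.36). These values lay 0.41 to 0.79 under the highest gene probe set of each P-bi-TAT array and 0.13 to 0.36 under that of each UNTREATED array, where the scale leaves little room upward, and EEF1A1 has many near-identical pseudogene copies. EEF1A2, the form known from muscle and neurons, had 3.66, 3.86 and 4.48 with P-bi-TAT and 5.06, 5.38 and 3.82 in UNTREATED arrays, at the low end of the scale in both groups. With 3 genes of such different kinds, the class median (0.07) rests on EEF1A1 alone.

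EEF2K, the kinase that inactivates eEF2 and so slows elongation, had 7.16, 8.17 and 8.32 in P-bi-TAT arrays, against 8.65, 9.0 and 8.69 in UNTREATED arrays. It was lower in all 3 P-bi-TAT arrays (exact permutation p = 0.1, the smallest possible), with differences of -0.90 (SE 0.46) and, without replicate 1, -0.54 (SE 0.37). Among the methyltransferases of elongation factors, differences without replicate 1 were above 0 and did not pass the unadjusted p, EEF1AKMT1 at 0.53 (SE 0.44) and EEF1AKMT2 at 0.20 (SE 0.42). EEF1AKMT2 had 3.69, 8.10 and 8.18 with P-bi-TAT and 7.40, 8.27 and 8.17 in UNTREATED arrays, so that its difference of -1.29 (SE 1.20) with all arrays came from replicate 1. EEF1E1-BLOC1S5, a transcript that reads from EEF1E1 into the next gene, had 3.43, 5.30 and 5.44 with P-bi-TAT and 4.73, 4.95 and 4.77 in UNTREATED arrays, and its difference without replicate 1 was 0.55 (SE 0.37).

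Set side by side, the eIF2, eIF3 and eIF4 classes had medians of the same sign in each P-bi-TAT array, below 0 in replicate 1 and above 0 in replicates 2 and 3. In the P-bi-TAT arrays, in the order of replicates 1, 2 and 3, the median difference from the UNTREATED mean was -2.80, 0.73 and 0.50 for the eIF2 class, and -1.98, 0.52 and 0.54 for eIF3. It was -1.66, 0.37 and 0.40 for eIF4, and 0.11, 0.01 and 0.10 for the elongation factors. Over all 52 genes it was -1.93, 0.67 and 0.43, and over all genes -1.23, -0.02 and 0.00. With all 6 arrays the medians were -0.42 for eIF2, -0.09 for eIF3, -0.28 for eIF4 and 0.07 for the elongation factors, with -0.26 over the 52 genes (21 above 0) and -0.43 over all genes (3766 of 17687 above 0). Without P-bi-TAT replicate 1 they were 0.68, 0.53, 0.40 and 0.05, with 0.56 over the 52 genes (41 above 0) and -0.01 over all genes (8714 above 0). The eIF4 medians of -1.66 in replicate 1 and 0.40 without it are the values of EIF4ENIF1, which was counted by name.

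**Figure D3:**
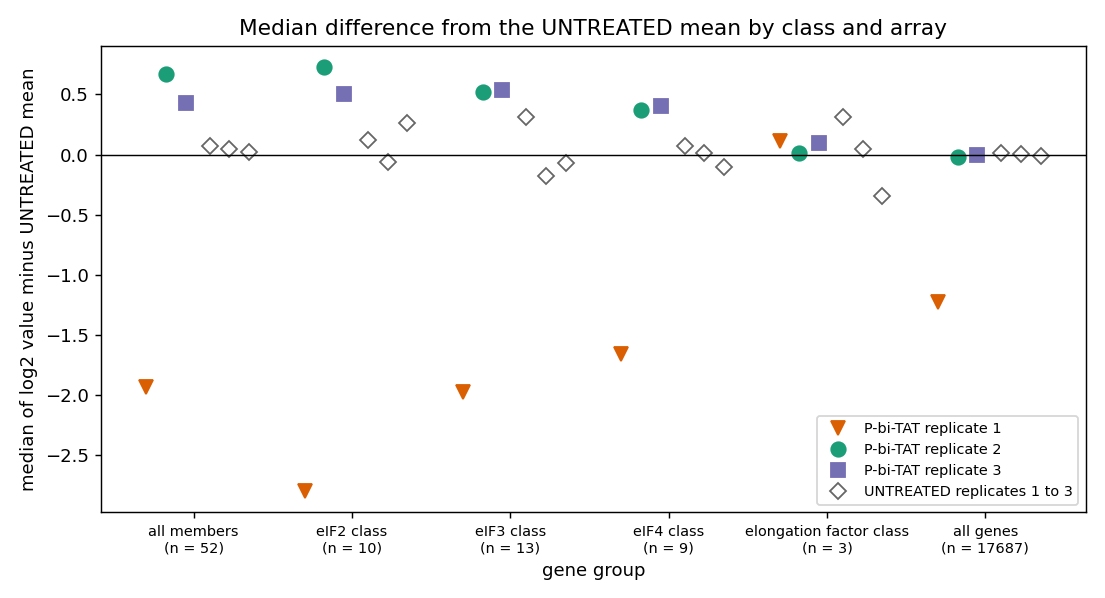
Median over each gene group (x axis, with the number of genes) of the log2 value minus the UNTREATED mean (y axis, log2 units), for each P-bi-TAT array (coloured symbols) and each UNTREATED array (open diamonds). The eIF2, eIF3 and eIF4 medians lie between 0.37 and 0.73 in P-bi-TAT replicates 2 and 3 and between -2.80 and -1.66 in replicate 1.

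The P-bi-TAT arrays had a wider range, with a highest gene probe set at 19.54 to 19.93, against 19.20 to 19.27 in the UNTREATED arrays. When all arrays were given the same distribution by quantile normalization, the median over the 52 genes was 0.18 with all arrays and 0.24 without the first P-bi-TAT array. The elongation factors then had a median of -0.13 with all arrays and -0.21 without it. The eIF2, eIF3 and eIF4 medians were 0.13, 0.18 and 0.20 with all arrays. Without that array they were 0.29, 0.04 and 0.20, against 0.68, 0.53 and 0.40 as deposited, so their size depended on the scale. There the eIF3 octamer had a median of -0.09 (0.38 as deposited), and the 5 other eIF3 subunits had 0.44 (0.84 as deposited). At the fold of 1.5 and the unadjusted p, quantile normalization gave 3 higher genes (EEF1D, EIF3G and EIF5AL1) and 3 lower genes (EIF2S1, EIF3H and EIF5B) with all arrays, beside 3.82% and 3.12% of all genes. Without P-bi-TAT replicate 1 it gave 7 higher genes (EEF1D, EIF2A, EIF2B2, EIF2S3, EIF3G, EIF3K and EIF5) and 3 lower genes (EEF2K, EIF4E1B and EIF5B), beside 5.61% and 4.85%. EEF1D was thus higher under all 4 settings, at 2.01 and 2.03 after quantile normalization, while EIF3D, EIF4B and EIF6 did not pass in either fit after it.

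Genes that were low in P-bi-TAT replicate 1 tended also to be low in UNTREATED replicate 1. Across the 52 genes, the value in replicate 1 minus the mean of replicates 2 and 3 in P-bi-TAT cells correlated with the same quantity in UNTREATED cells (Pearson r = 0.60, Spearman rho = 0.50, beside 0.32 and 0.22 over all genes). These are correlations across genes of the same arrays, which are not independent, and they carry no test. In 20 genes P-bi-TAT replicate 1 lay over 3 below the other P-bi-TAT arrays, in 13 genes UNTREATED replicate 1 lay over 1 below the other UNTREATED arrays, and 9 genes met both limits. The median shortfall of P-bi-TAT replicate 1 was -4.37 in the 13 genes and -2.22 in the others. EIF1AX, EIF3E, EIF2S2, EIF4E, EIF3A and EIF5 stood at the low end of both groups, whereas EIF1, EIF5A, EIF4H, EIF3I and EIF3F did not. These genes were picked from the plot after their values were seen.

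**Figure D4:**
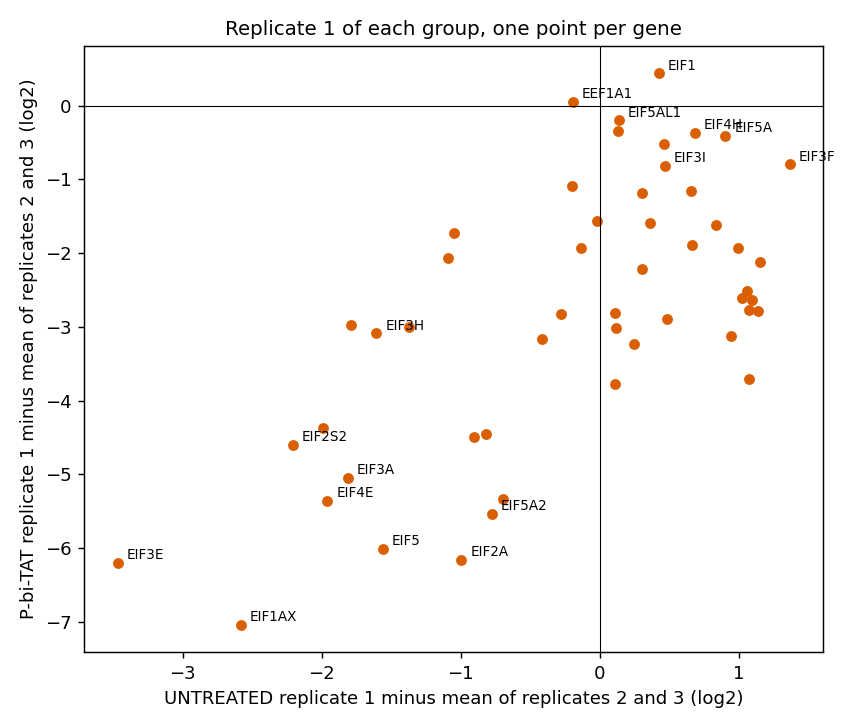
Each point is 1 of 51 genes (EIF1AY is not drawn). The y axis gives P-bi-TAT replicate 1 minus the mean of P-bi-TAT replicates 2 and 3, the x axis UNTREATED replicate 1 minus the mean of UNTREATED replicates 2 and 3 (log2 units). EIF3E and EIF1AX lie lowest on both axes, and EIF1 and EEF1A1 lie above 0 on the y axis.

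Genomic length went weakly with the value in replicate 1 of both groups. The difference of P-bi-TAT replicate 1 from the UNTREATED mean correlated at r = -0.33 with the log10 genomic length over the 52 genes, and at r = -0.20 over 17683 genes with a length. For UNTREATED replicate 1 against the other UNTREATED arrays the values were -0.35 and -0.17. The difference of P-bi-TAT replicate 1 went more closely with the UNTREATED mean over all genes (r = -0.63, Spearman rho = -0.79), but not over the 52 genes (r = 0.08). That mean is also part of the difference. Genes are not independent points here, and no test is given.

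Of the 52 genes 41 had an entry in the RefSeq promoter table (GRCh38.p14), as had 14250 of the 17687 genes. Of these, 9 (22.0%) had a start at a C that opens a run of at least 5 pyrimidines, beside 868 of all genes (6.09%). The 9 were EEF1A1, EIF2A, EIF2D, EIF2S3, EIF3D, EIF3F, EIF3K, EIF3M and EIF4B. Without P-bi-TAT replicate 1 their median difference was 1.06, with 9 of 9 above 0 and 5 of 9 among the higher genes, against 0.52, 24 of 32 and 3 of 32 in the members with another start. Over all genes the medians were 0.16 with such a start and 0.00 with another, with 517 of 868 and 6698 of 13382 above 0, and with 117 of 868 and 1269 of 13382 among the higher genes. After quantile normalization without that array EEF1A1 (-0.21) and EIF3M (-0.25) were below 0, so that 9 of 9 held on the deposited scale only. Of the higher genes, EIF2A, EIF2S3 and EIF3K with the run still passed there, and EIF3D and EIF4B did not. Of those with another start, EIF2B2 and EIF5 still passed, and EIF6 did not. In P-bi-TAT replicate 1 itself the medians of the members were -1.84 with the run and -1.77 without it, which are close to each other. With all arrays the medians were 0.29 and -0.28.

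**Figure D5:**
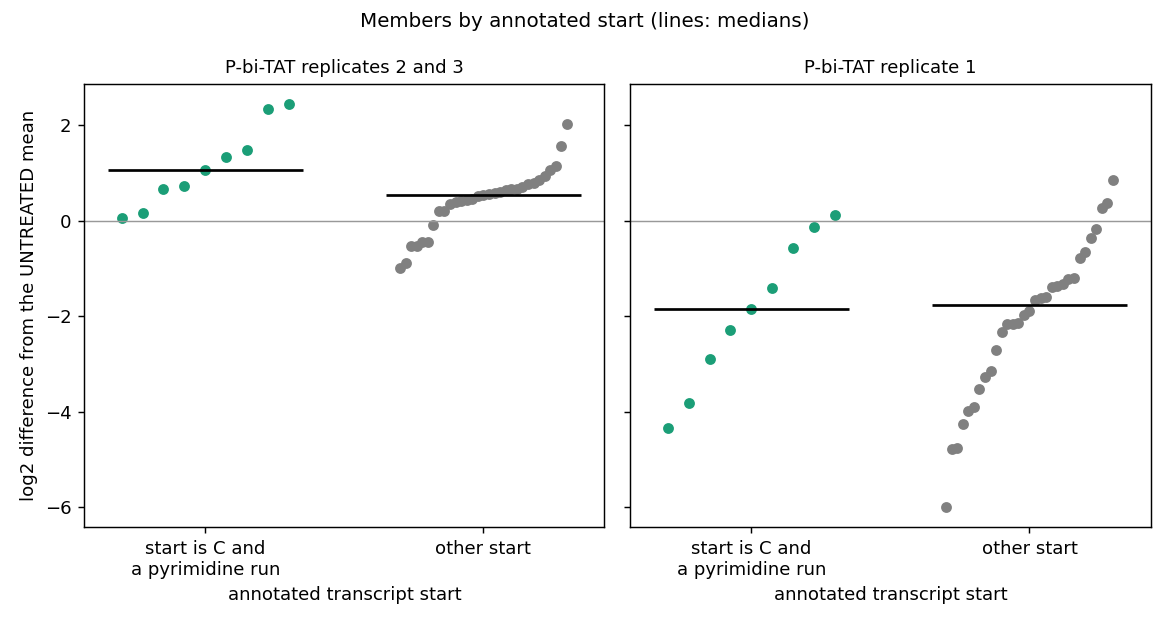
Log2 difference from the UNTREATED mean (y axis) of the members whose annotated start is a C that opens a pyrimidine run and of those with another start (x axis), for the mean of P-bi-TAT replicates 2 and 3 (left) and for replicate 1 (right). Each point is a gene (EIF1AY is not drawn), and lines are medians over 9 and 32 genes. The medians are 1.06 and 0.52 on the left and -1.84 and -1.77 on the right.

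This division by start was made with the values known and is a description without a test, and a match to these letters shows neither the start used in U87MG cells nor a cause. The run is seen in the printed starts of EIF2S3, EIF2A, EIF3K and EIF4B, whose values in P-bi-TAT replicates 2 and 3 all exceeded the UNTREATED arrays, and in those of EEF1A1 (0.05) and EIF3M (0.16), which did not differ beyond their error. EIF2S1, EIF5B and EEF2K, with differences below 0 in both fits of the deposited values and no pass of the unadjusted p there, have no run. Neither have EIF5 (2.02), EIF2B2 (1.55) and EIF6 (1.15), which were among the 10 higher genes. The E-box CACGTG, which reads the same on both strands, occurred in the 300 bases around the start (250 before and 50 after) of 11 of the 41 members (26.8%) and of 10.8% of all genes with an entry. The members with it had a median difference without P-bi-TAT replicate 1 of 0.70, and those without it 0.52. Over all genes these medians were 0.11 and -0.0003. Among the higher genes were 2 of 11 members with the E-box and 6 of 30 without it, beside 181 of 1538 and 1205 of 12712 of all genes.

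Genes that act on these factors, and other translation factors outside the rule, were read from lists of other pathway members. With all 6 arrays, 0 of them passed the fold of 1.5 with the unadjusted p in either direction. The counts without P-bi-TAT replicate 1 stand beside 9.26% of all genes higher and 5.31% lower. Of 6 genes for eIF2 kinases and eIF2 phosphatase adaptors, the median difference was -1.16 with all arrays and -0.14 without the first P-bi-TAT array. Of the 6, 5 were below 0 with all arrays and 4 without that array, EIF2AK3 among them in both (-1.49 and -0.97). EIF2AK1, the heme-regulated kinase, was lower in all 3 P-bi-TAT arrays, at 9.32, 11.35 and 11.32, against 11.91, 12.02 and 11.92 in UNTREATED arrays. EIF2AK4, the kinase that senses uncharged tRNA, passed as higher without replicate 1 (1.76, SE 0.64), with values of 4.42, 8.05 and 7.88 with P-bi-TAT and 5.01, 7.33 and 6.30 in UNTREATED arrays.

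Of 7 measured genes among the 4E-BPs, the MNK kinases and the mTOR arm, 1 was higher without replicate 1. This was EIF4EBP1, the repressor that sequesters eIF4E, at 8.22, 10.67 and 10.22 with P-bi-TAT and 9.70, 8.25 and 5.85 in UNTREATED arrays (2.51, SE 0.95), with a spread between the UNTREATED arrays wider than that difference. MTOR was the 1 gene of the 7 below 0 without replicate 1 (-0.43), and its difference was -1.14 with all arrays. Of 13 release, recycling and helper factors, 5 were higher without replicate 1 and 0 were lower. They were DENR, PABPC4, PAIP2, DHPS, which begins the hypusine modification of eIF5A, and EEFSEC, the elongation factor for selenocysteine, and EEFSEC differed most (1.82, SE 0.40). Of 8 mitochondrial translation factors, 3 were higher (MTIF3, TSFM and MTRFR) and 0 lower. With all 6 arrays the medians of the last 3 lists were -0.51, -0.57 and -0.41, and without P-bi-TAT replicate 1 they were 0.17, 0.44 and 0.86.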

How the data were processed

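Total RNA of U87MG cells was measured on 6 Affymetrix Clariom S arrays. The values the authors deposited are log2 expression values of probe sets, with each array in its own column, and were used unchanged. The submitters' processing notes list Transcriptome Analysis Console 4.0.1.36 and RMA, the paper's methods SST-RMA, and the sources leave this unresolved. The 2903 control probe sets were left out of the tests, and the other 21448 were fitted in R 4.3.3 by lmFit and eBayes of limma 3.58.1, P-bi-TAT against UNTREATED, with Benjamini-Hochberg adjustment over all of them. SEs and differences are on the log2 scale. Of these probe sets 17709 carry 1 symbol, and where a symbol had several the one with the highest mean was read. Groups and replicate numbers come from the sample titles. A gene is above the negative controls where its group mean exceeds the negative control level, the mean over the group's arrays of the median of those probe sets. The methods' limits (1.5-fold with p under 0.05) were counted with the unadjusted and adjusted p.

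The members and lists were chosen with earlier results of these data known. Members were named by rule where they passed 1.5-fold and an unadjusted p. So were those with the highest UNTREATED mean and the highest and lowest difference of each class. The paralogs of EEF1A, EIF5A, EIF4A, EIF4E and EIF4G and the 6 largest differences of P-bi-TAT replicates 2 and 3 were also named. Genes of the other pathway lists were named where they passed as higher without P-bi-TAT replicate 1. EIF2AK1, EIF2AK3 and MTOR, below 0 in both fits, were named besides these. The other genes named complete a count or were chosen after their values were seen. Sequences are from the RefSeq promoter table of GRCh38.p14. Array precision is limited by the 3 arrays of each group. As alternatives, each array was left out, the scaling or the variance model was changed, the replicate number was used as a block, the methods' one-way test was used, or the dimmest 33.3% of probe sets were left out. Simulated data, in which 200 probe sets were changed, served to test the fit.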

Additional observations from a re-analysis of the deposited data

How the results depend on the processing

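When each array was left out in turn, the number of higher members at 1.5-fold and the unadjusted p ranged from 0 to 10 (the 10 without P-bi-TAT replicate 1, EEF1D being lost without P-bi-TAT replicate 2 or 3 or UNTREATED replicate 2 or 3) and that of lower members from 0 to 2. The median over the members ranged from -0.79 to 0.56, that of eIF2 from -1.04 to 0.68, of eIF3 from -0.96 to 0.53, of eIF4 from -0.70 to 0.40 and of the elongation factors from 0.0069 to 0.12. Quantile normalization gave 3 higher and 3 lower members and an elongation factor median of -0.13, removal of the intensity trend 2, 3 and -0.29, and median centring 0 lower members and a median of 0.58. With P-bi-TAT replicate 1 left out as well, quantile normalization gave 7 higher and 3 lower members and -0.21, and removal of the intensity trend 7, 4 and -0.46. Array weights gave 10 higher members and the one-way test 0. An eBayes trend, or leaving out the dimmest probe sets, gave 0 lower members. The median over the members was below 0 with all 6 arrays as deposited and above 0 under each of these scalings and with array weights. Under every setting 0 members passed an adjusted p under 0.05. Each member had 1 probe set, so averaging probe sets could change nothing.

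The labels do not state whether the replicate numbers pair the samples, and the values could not decide it. The deviations of same-numbered arrays from their group means correlated at 0.30, 0.04 and 0.33 over the gene probe sets. P-bi-TAT replicates 1 and 3 each correlated best with the UNTREATED array of their own number, and P-bi-TAT replicate 2 with UNTREATED replicate 3 (0.15). The 3 deviations of a group sum to 0, so these correlations are not independent. With the replicate block 0 members were higher and 2 were lower (EIF5B and EIF3H), while EIF4E1B did not pass (unadjusted p = 0.064 by limma). EIF4E1B also lost its call under the 3 other scalings of the 6 arrays. Leaving out UNTREATED replicate 1, or P-bi-TAT replicate 2 or 3, ended it too.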
